A study of Mus musculus with 32 samples.

Results

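The extracellular matrix genes of mouse lung organoid cultures were examined as 1 set of 48 genes, out of 11818 genes in the count table. A gene belonged to the set if its symbol followed the naming pattern of collagen chains, laminin chains, fibulins, fibrillins, emilins, nidogens or the Efemp fibulins, or if it was 1 of 10 named matrix genes (Fn1, Eln, Hspg2, Agrn, Sparc, Tnc, Vcan, Mfap2, Mfap4 and Mfap5). Membership followed from the symbol, but the naming rule was set with earlier results of these data known. A gene also had to be in the count table, where every gene had at least 1 count in every library. The patterns found 42 genes and the names 6 more. The set holds 24 collagen chains and 8 laminin chains, and all 48 genes passed the filter on low counts in every comparison. By function, 23 genes were placed with the interstitial matrix (8 fibrillar collagens, 3 fibril-associated collagens, 3 collagen VI chains, 6 elastic fibre genes and the glycoproteins Fn1, Tnc and Vcan), 19 with the basement membrane (6 collagen IV chains, 8 laminins and 5 nidogens and proteoglycans), and 6 with neither (Col7a1, Col8a1, Col17a1, Fbln1, Fbln2 and Sparc). Of 78 symbols on the list of known family members, 30 were not analysed here, among them Eln (elastin), Lama3 and the Mfap genes.

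Epcam+ cells (sorted as CD45-/CD31-/Epcam+) from the lungs of 4 C57BL/6J mice, 8 to 14 weeks of age, were mixed 1:1 with CCL206 cells (mouse lung fibroblasts of an established line, growth-arrested with mitomycin C) and grown in Matrigel. Cultures received vehicle, extracellular vesicles (EVs, 1000000000 particles/mL) or soluble factors (SFs, 30 µg/mL) from the human lung fibroblast line MRC5, or osteoglycin (OGN, 10 µg/mL), a small leucine-rich proteoglycan. The OGN was recombinant human protein. After 72 h the cultures were dissociated and separated with Epcam microbeads into an Epcam+ fraction and the remaining CCL206 fraction, and the RNA of each was sequenced, which gave 8 groups of 4 libraries. Every culture thus shared the same fibroblast line, the same gel and, within a mouse, the same pool of Epcam+ cells. The CCL206 libraries of the 4 mice are separate cultures of 1 line.

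Interstitial matrix is built on fibrils of collagens I, III and V, coated by fibril-associated collagens, linked by fibronectin and collagen VI, and made elastic by fibrillin, emilin and fibulin proteins. Basement membranes lie beneath epithelium and are sheets of laminin and collagen IV joined by nidogens and the proteoglycans perlecan (Hspg2) and agrin. In the alveolus, fibroblasts supply most interstitial matrix, whereas epithelium and fibroblasts both contribute to the basement membrane. Matrigel is itself an extract of basement membrane proteins, but it adds protein and not these transcripts.

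Library totals lay between 1805914 and 17675454 counts (median 5901652). Levels are given as CPM (read counts scaled to library size, here with TMM factors over all 32 libraries), and levels of different genes are compared only as CPM per kb of transcript. The alveolar type 2 (AT2) markers summed to 9552 to 15999 CPM in vehicle-treated Epcam+ libraries and 1876 to 4841 CPM in the matching CCL206 libraries. The 8 measured fibroblast markers that are not in the matrix set (Dcn, Lox, Lum, Mmp2, Pdgfra, Pdgfrb, Prrx1 and Twist2) summed to 362 to 587 and 2272 to 2604 CPM, and their median level in the Epcam+ fraction was 16.4% to 22.8% of that in the CCL206 fraction of the same culture. All of these markers had counts in every library. Of 8 endothelial and 8 immune markers, 1 (Vwf) and 2 (Cd14 and Cd68) were measured. In bulk RNA, fewer cells of a type and less RNA per cell cannot be told apart.

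With vehicle, the matrix program of the fractions differed by gene family. Epcam+ cells had 8 matrix genes above and 36 below their level in CCL206 fibroblasts, where 35.6% of all genes tested were higher and 35.8% lower (adjusted p under 0.05). The median log2 difference was -2.11 over the 23 interstitial genes, with 1 higher and 20 lower, and -0.83 over the 19 basement membrane genes, with 5 higher and 13 lower. All genes tested had a median of -0.0003. The 8 fibroblast markers outside the set had a median of -2.41, and all 8 were lower in Epcam+ cells. Their part in the fibrillar collagen and fibronectin values of the Epcam+ fraction was not tested.

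Genes of hemidesmosomes, the junctions that hold epithelium to its basement membrane, were among those higher in Epcam+ cells. Col17a1, the hemidesmosomal collagen that anchors epithelium to laminin, measured 83.8, 96.2, 75.6 and 32.4 CPM in the Epcam+ libraries of mice 1 to 4 and 3.17, 5.00, 4.09 and 2.08 CPM in the CCL206 libraries (log2 fold change 4.31, SE 0.15, adjusted p = 3.12e-09). Lamb3 encodes the beta chain of the laminin found at hemidesmosomes. It measured 168, 174, 151 and 120.2 CPM against 15.6 to 32.5 CPM over the CCL206 libraries (log2 fold change 2.86, SE 0.13, adjusted p = 1.67e-08). For both genes the lowest Epcam+ library lay above the highest CCL206 library.

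Agrn, an agrin proteoglycan of basement membranes, was 1.84-fold higher in Epcam+ cells (log2 fold change 0.88, SE 0.07, adjusted p = 1.16e-06). Of the fibulin family, Efemp1 (log2 fold change 3.57 ± 0.21, adjusted p = 9.04e-08) and Fbln1 (3.21 ± 0.30, adjusted p = 3.01e-06) were higher in Epcam+ cells, whereas Efemp2 was -1.86 ± 0.11, adjusted p = 7.61e-08. The collagen IV pair of chromosome 1 was also higher, with Col4a4 at 1.92 ± 0.29, adjusted p = 0.000134 and Col4a3 at 1.40 ± 0.29, adjusted p = 0.00131. Here the values after ± are SE.

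**Figure D1:**
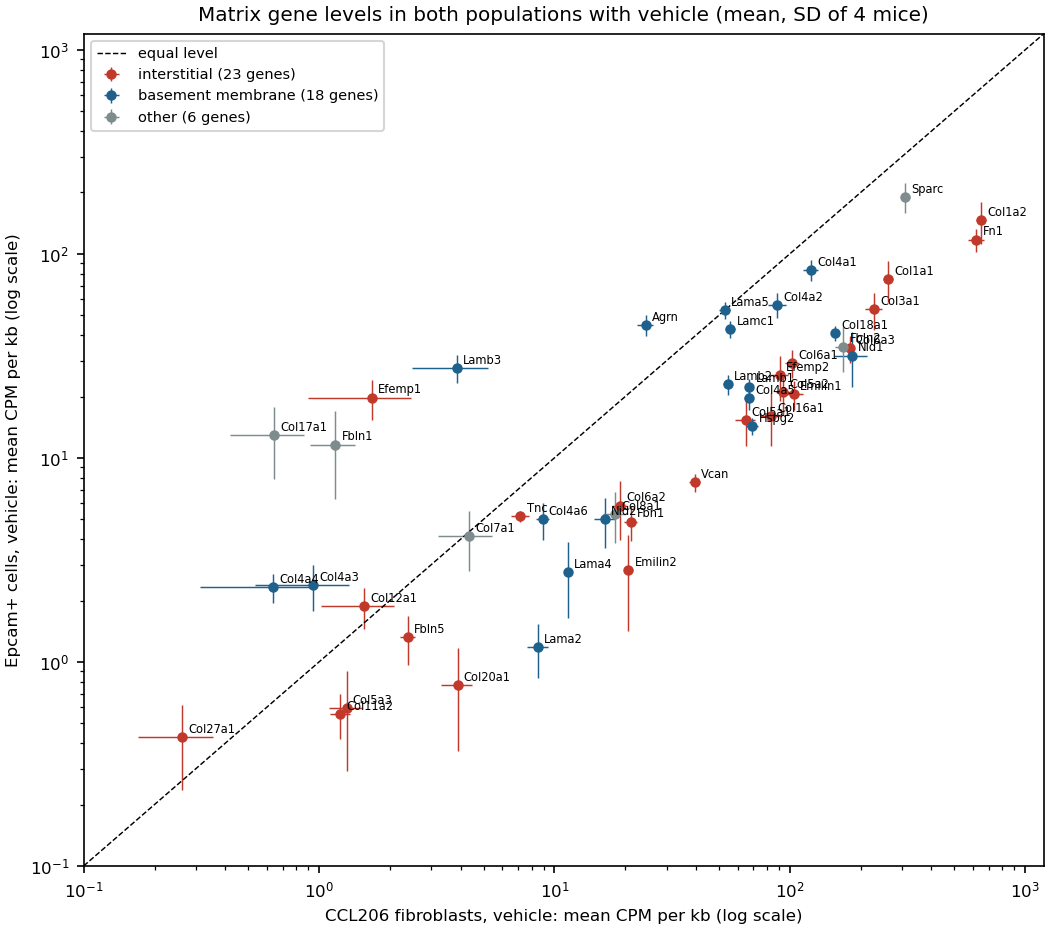
Mean level of 47 matrix genes with vehicle, in CPM per kb of transcript on log axes, in CCL206 fibroblasts (horizontal) and Epcam+ cells (vertical), each point 1 gene with SD bars over 4 mice and the dashed line marking equal levels. Lamb3, Col17a1, Efemp1, Fbln1, Agrn, Col4a3 and Col4a4 lie above the line beyond the test's threshold, and most interstitial genes lie below it.

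Most interstitial genes were several times lower in the Epcam+ fraction. Per kb of transcript, Col1a2 was the highest of the set in CCL206 fibroblasts at 649 ± 32.5 CPM per kb (mean ± SD, n = 4), followed by Fn1 at 621 ± 50.1, and these neighbours differed by less than their spread. Sparc, a collagen-binding glycoprotein, followed at 308 ± 15.1, Col1a1 at 262 ± 13.1 and Col3a1 at 228 ± 17.9 CPM per kb. In Epcam+ cells the order began with Sparc at 190.1 ± 31.8, Col1a2 at 146 ± 33.8 and Fn1 at 118 ± 15.1 CPM per kb. The 10 lower genes with the smallest p held Fn1 (-2.41 ± 0.07), Vcan (-2.39 ± 0.07), Nid1 (-2.56 ± 0.09), Hspg2 (-2.27 ± 0.08), Col6a3 (-2.39 ± 0.08), Col18a1 (-1.94 ± 0.07), Col3a1 (-2.11 ± 0.08), Fbln2 (-2.29 ± 0.09), Col1a2 (-2.18 ± 0.09) and Col4a5 (-1.77 ± 0.08), given as log2 fold change ± SE, with adjusted p between 9.86e-10 and 1.14e-08. Col1a1 was -1.83 ± 0.09, adjusted p = 2.73e-08.

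Collagen IV and the laminins did not follow 1 pattern. The abundant chains Col4a1 (-0.57 ± 0.08, adjusted p = 4.76e-05) and Col4a2 (-0.66 ± 0.09, adjusted p = 7.35e-05) were lower in Epcam+ cells by less than any fibrillar collagen that passed the test. Lama5, the alpha chain of the laminins of mature epithelial basement membranes, measured 53.0 ± 4.98 CPM per kb in Epcam+ cells and 53.0 ± 2.74 in CCL206 fibroblasts, and its log2 difference had a 95% interval of -0.14 to 0.13. Lama2 and Lama4, alpha chains found mainly in mesenchymal and vascular basement membranes, were -2.81 ± 0.16, adjusted p = 5.07e-08 and -2.09 ± 0.17, adjusted p = 1.02e-06. Besides Lama5, the genes Col7a1, Col12a1 and Col27a1 did not pass the test.

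With OGN in Epcam+ cells, 2 of 48 matrix genes were called higher than with vehicle (background 1.48% of all genes tested) and 7 lower (background 1.22%, or 2.7% in either direction). By edgeR's test 25 of 48 had an unadjusted p under 0.05, beside 1540 of 11716 genes tested, and DESeq2 called 12. All 8 fibrillar collagens had negative values, and none passed the test. The gene with the largest rise was Emilin2, an elastic fibre glycoprotein, and the falls were those of Col4a3 and Col4a4, of Col6a1 and Col6a2, of Nid2, Col8a1 and Col12a1.

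Emilin2 measured 11.6, 5.79, 11.7 and 20.6 CPM with vehicle and 40.3, 26.7, 22.6 and 33.6 CPM with OGN in mice 1 to 4 (log2 fold change 1.33, SE 0.21, adjusted p = 0.000454). The groups did not overlap, and Emilin2 was higher in 4 of 4 mice. Fbln2, a fibulin that binds fibronectin and basement membrane proteins, measured 152, 134, 156 and 229.9 CPM with vehicle and 225, 213, 269.5 and 248 CPM with OGN (log2 fold change 0.53, SE 0.09, adjusted p = 0.00125), again higher in 4 of 4 mice although the groups overlapped. Fbln2 was also the matrix gene raised by each of the other agents in this population.

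Col6a1 measured 101, 121, 112 and 144 CPM with vehicle and 77.3, 62.5, 81.0 and 81.2 CPM with OGN (log2 fold change -0.64, SE 0.10, adjusted p = 0.000319), and Col6a2 34.0, 28.0, 26.3 and 51.0 CPM and 18.5, 19.4, 22.1 and 14.8 CPM (log2 fold change -0.83, SE 0.18, adjusted p = 0.00829). In both genes every OGN library lay below every vehicle library. The third chain of the beaded filament, Col6a3, did not pass the test (-0.18 ± 0.11, adjusted p = 0.534), with a 95% interval of -0.40 to 0.04.

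Col4a3 and Col4a4 encode chains of the alveolar and glomerular collagen IV network. Col4a3 measured 25.2, 13.8, 18.8 and 23.7 CPM with vehicle and 15.1, 4.61, 10.7 and 10.2 CPM with OGN (log2 fold change -1.01, SE 0.19, adjusted p = 0.00287), and Col4a4 26.3, 26.7, 18.4 and 24.8 CPM and 18.1, 6.45, 14.4 and 15.3 CPM (log2 fold change -0.79, SE 0.21, adjusted p = 0.0371). Both were lower in 4 of 4 mice, and the Col4a4 groups did not overlap. By edgeR's test the Col4a4 call was lost without mouse 1 (adjusted p = 0.146), mouse 2 (0.132) or mouse 4 (0.0793). Without the replicate block neither gene was called (0.0830 for Col4a3 and 0.0845 for Col4a4). With the length trend out, 1 collagen IV chain was called lower. Their partner Col4a5 (-0.02 ± 0.09, adjusted p = 0.961) and the abundant chains Col4a1 (0.09 ± 0.08, adjusted p = 0.694) and Col4a2 (0.23 ± 0.07, adjusted p = 0.121) did not pass the test.

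The remaining 3 genes fell in 4 of 4 mice. Nid2, a nidogen that links laminin to collagen IV, measured 19.2, 26.0, 19.2 and 33.5 CPM with vehicle and 8.81, 9.96, 14.2 and 20.7 CPM with OGN (log2 fold change -0.87, SE 0.18, adjusted p = 0.00757). Col8a1, a short-chain collagen of vessel walls, went from 20.3, 28.6, 22.2 and 37.1 CPM to 13.0, 15.1, 14.7 and 21.3 CPM (log2 fold change -0.74, SE 0.16, adjusted p = 0.0108). Col12a1, a fibril-associated collagen, went from 29.5, 19.3, 21.8 and 18.1 CPM to 15.7, 12.7, 14.9 and 5.92 CPM (log2 fold change -0.83, SE 0.20, adjusted p = 0.0214). Groups of the first pair overlapped by 1 OGN library each, and those of Col12a1 did not overlap.

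Of the 8 fibrillar collagens, 0 passed edgeR's test with OGN in Epcam+ cells (3 lower at an unadjusted p under 0.05, 0 by DESeq2, median log2 fold change -0.30, range -0.36 to -0.13). Col1a1 was -0.18 ± 0.11 (95% interval -0.41 to 0.04, adjusted p = 0.539), Col1a2 -0.13 ± 0.09 (adjusted p = 0.599) and Col3a1 -0.36 ± 0.13 (adjusted p = 0.167). Fn1 was -0.17 ± 0.11, Sparc -0.34 ± 0.10, Hspg2 -0.08 ± 0.11, Nid1 0.36 ± 0.11, Lamb3 -0.22 ± 0.09 and Tnc 0.17 ± 0.13, with adjusted p between 0.0742 and 0.835. Beside these values, the 8 fibroblast markers outside the set had a median of 0.14, 4 positive and 4 negative, with Dcn (1.14 ± 0.12) and Lox (0.72 ± 0.12) called higher, and their sum was 519.8 to 643 CPM. Their part in these results was not tested. The count of 9 called genes was 4 without mouse 1 and 5 without mouse 2.

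In CCL206 fibroblasts OGN raised 3 matrix genes (background 2.7%) and lowered 3 (background 1.86%, or 4.56% in either direction). Emilin2 measured 93.0, 92.3, 94.5 and 85.7 CPM with vehicle and 203, 187, 146 and 181 CPM with OGN (log2 fold change 0.97, SE 0.11, adjusted p = 2.79e-05). Fbln2 measured 747, 781, 818 and 887 CPM and 1172, 1243, 1383 and 1353 CPM (log2 fold change 0.67, SE 0.11, adjusted p = 0.00150). Tnc, tenascin-C, a glycoprotein of developing and injured tissue, measured 54.9, 49.8, 47.1 and 57.4 CPM and 80.2, 92.8, 108 and 102 CPM (log2 fold change 0.87, SE 0.16, adjusted p = 0.00292). All 3 were higher in 4 of 4 mice without overlap between the groups.

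The falling genes were Col8a1, Col6a2 and Col7a1, the collagen of anchoring fibrils. Col8a1 measured 80.6, 86.3, 102 and 100.1 CPM with vehicle and 52.1, 55.8, 52.8 and 59.4 CPM with OGN (log2 fold change -0.74, SE 0.12, adjusted p = 0.00116), and Col6a2 116, 124, 106 and 108 CPM and 79.1, 80.3, 90.0 and 80.7 CPM (log2 fold change -0.46, SE 0.09, adjusted p = 0.00638), in both cases without overlap. Col7a1 went from 42.9, 51.5, 39.5 and 26.5 CPM to 26.7, 27.2, 29.1 and 25.4 CPM (log2 fold change -0.53, SE 0.14, adjusted p = 0.0389), with the lowest vehicle library inside the range of the OGN libraries. Without mouse 2 the count of called genes was 3, 2 higher and 1 lower.

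Col1a1 (0.04 ± 0.10), Col1a2 (-0.03 ± 0.10), Col3a1 (-0.02 ± 0.12), Col4a1 (-0.03 ± 0.13), Fn1 (-0.05 ± 0.25) and Hspg2 (-0.07 ± 0.26) had log2 fold changes close to 0 in CCL206 fibroblasts with OGN, and the 95% interval of Col1a1 was -0.16 to 0.25. Col4a2 (0.14 ± 0.13), Sparc (-0.17 ± 0.10) and Lamb3 (0.06 ± 0.20) did not pass the test either. Of the 8 fibroblast markers in the same libraries (median 0.11), Dcn (1.40 ± 0.09), Lox (1.46 ± 0.13), Lum (0.93 ± 0.11) and Prrx1 (0.39 ± 0.08) were called higher. The other 4, Mmp2 (-0.22 ± 0.09), Pdgfra (-0.25 ± 0.12), Pdgfrb (-0.16 ± 0.13) and Twist2 (-0.27 ± 0.15), had negative values and were not called. Their part in the matrix values was not tested.

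With the EV-treated CCL206 libraries in the fit the SE was larger for 47 of 48 genes, all but Col27a1, with a median of 0.158 against 0.0707 without them. When they were left out, 8 matrix genes were higher and 8 lower with OGN, and the fold changes of the 6 genes above moved by less than 0.05 on the log2 scale. The share of all genes called in that fit is not given, so these counts stand without a background. The added higher genes were Nid1 (0.46 ± 0.06, adjusted p = 1.38e-05), Lama4 (0.53 ± 0.08, adjusted p = 4.94e-05), Agrn, Col5a3 and Col16a1. The added lower genes were Lama2 (-0.59 ± 0.09, adjusted p = 4.80e-05), Nid2 (-0.53 ± 0.08, adjusted p = 5.72e-05), Col6a1 (-0.30 ± 0.06, adjusted p = 0.00126), Col4a6 and Fbn1. With all 16 libraries Nid1 measured 1005, 936, 1206 and 1334 CPM with vehicle and 1188, 1294, 1859 and 1896 CPM with OGN (log2 fold change 0.46, SE 0.21, adjusted p = 0.302), and Nid2 70.5, 78.1, 82.2 and 90.2 CPM and 44.6, 53.6, 59.6 and 63.7 CPM (log2 fold change -0.54, SE 0.16, adjusted p = 0.0723). The paired nidogens thus had values of opposite sign in the same libraries.

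**Figure D2:**
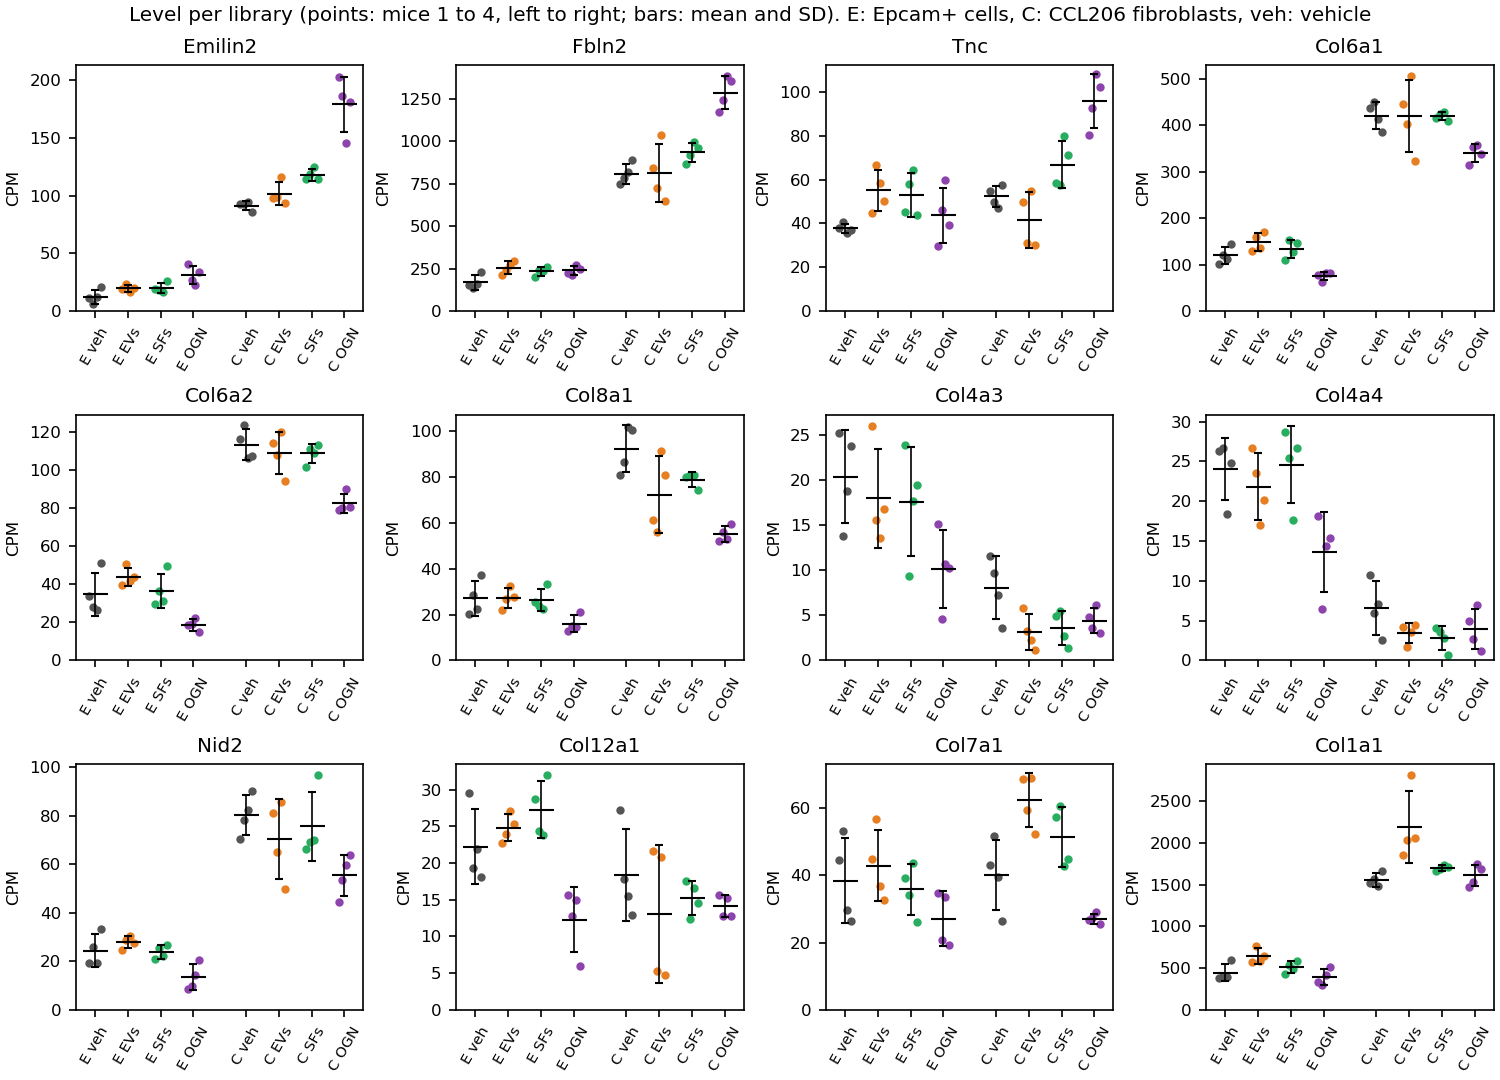
CPM per library of the 11 matrix genes called with OGN in either population, and of Col1a1, in the 8 groups (points are mice 1 to 4 from left to right, bars are mean and SD, E marks Epcam+ cells and C marks CCL206 fibroblasts). Emilin2 reaches 146 to 203 CPM in OGN-treated CCL206 fibroblasts against 85.7 to 94.5 CPM with vehicle, whereas the Col1a1 points of both groups overlap.

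A test of the difference in OGN effect between the populations called no matrix gene (edgeR quasi-likelihood test, 48 tested, 4 at an unadjusted p under 0.05, 0 by DESeq2, background 0.551% of all genes). For Tnc the effect in CCL206 fibroblasts minus that in Epcam+ cells was 0.69 ± 0.22 (adjusted p = 0.220), and for Emilin2 -0.36 ± 0.23 (adjusted p = 0.920). Emilin2, Fbln2, Col6a2 and Col8a1 were called in both populations and in the same direction. Both fractions were separated from the same cultures, so this agreement is not independent. The fibroblast markers outside the set had a median level in the Epcam+ fraction of 16.4% to 22.8% of that in the CCL206 fraction with vehicle. With OGN it was 13.4% to 20.95%. Their part in the agreement was not tested.

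Upstream sequence is shown for the 3 genes that OGN raised and for Col4a3 and Col4a4, to set their start sites beside the values. Both of these collagen IV genes were called lower with OGN in Epcam+ cells, within the limits given above. It is RefSeq sequence of build GRCm38.p6, read 5′ to 3′ on the strand of the gene, and covers the 250 bases before the annotated start. Capitals mark GGGCGG (the core of a GC box, on either strand) and TATAAA.
Emilin2, chr17:71311557-71311806, minus strand: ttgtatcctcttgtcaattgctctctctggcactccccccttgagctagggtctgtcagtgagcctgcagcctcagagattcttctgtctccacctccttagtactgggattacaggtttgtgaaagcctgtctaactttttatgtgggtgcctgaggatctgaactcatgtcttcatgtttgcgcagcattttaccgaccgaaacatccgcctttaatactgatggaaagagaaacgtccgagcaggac
Fbln2, chr6:91212514-91212763, plus strand: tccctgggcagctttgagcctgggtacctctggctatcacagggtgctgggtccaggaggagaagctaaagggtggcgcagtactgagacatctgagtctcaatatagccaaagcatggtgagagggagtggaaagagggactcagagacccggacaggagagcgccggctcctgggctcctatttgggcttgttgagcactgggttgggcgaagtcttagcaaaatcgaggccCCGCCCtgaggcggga
Tnc, chr4:64047016-64047265, minus strand: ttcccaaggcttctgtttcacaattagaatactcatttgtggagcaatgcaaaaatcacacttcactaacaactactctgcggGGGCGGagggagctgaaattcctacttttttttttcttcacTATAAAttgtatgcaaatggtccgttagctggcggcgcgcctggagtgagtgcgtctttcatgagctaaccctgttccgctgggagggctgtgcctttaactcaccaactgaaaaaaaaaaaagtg
Between the starts of Col4a4 and Col4a3, chr1:82586850-82586920, on the minus strand of Col4a4: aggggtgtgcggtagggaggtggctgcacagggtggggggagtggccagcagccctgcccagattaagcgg

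Col4a3 starts at 82586921 on the plus strand and the listed start of Col4a4 lies on the opposite strand, so that only 71 bases separate them, 69.0% of them G or C. A longer Col4a4 record ends at 82587034 and overlaps the start of Col4a3. Reads from such shared bases cannot be assigned to 1 gene without strand. Tnc holds GGGCGG beginning 167 and TATAAA beginning 126 bases before its start, Fbln2 holds GGGCGG on the opposite strand beginning 16 bases before its start, and neither motif is in the Emilin2 window printed, although an Emilin2 promoter entry holds GGGCGG outside it. Over 32851 RefSeq promoter windows (250 bases before to 50 after a start, both strands searched), 32.7% held GGGCGG, 12.4% TATAAA, 6.7% TGANTCA and 3.9% the kappa-B consensus. Of the 8 genes called with OGN that had an entry, 6 held GGGCGG in at least 1 entry (Col6a2, Col7a1, Col8a1, Emilin2, Fbln2 and Tnc), 1 TATAAA (Tnc), 1 TGANTCA (Col6a1) and 0 the kappa-B consensus. These counts are by gene and the shares above are by window, and Col6a2, Emilin2 and Tnc have 2 entries each, so they are not in like units. These matches are a description of letters and say nothing of binding. The other 3 of the 11 genes called with OGN had no entry.

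EVs raised 11 matrix genes in Epcam+ cells (background 0.538%, or 0.888% in either direction) and lowered 0 (background 0.35%) by edgeR's test, with 3 lower at an unadjusted p under 0.05 and 2 lower by DESeq2. Interstitial genes made up 7 of them, namely Col1a1, Col1a2, Col3a1, Col5a2, Col16a1, Fn1 and Vcan, and the others were Col4a1, Col4a2, Col18a1 and Fbln2. Fbln2 measured 211, 239, 273 and 297 CPM with EVs (log2 fold change 0.59, SE 0.09, adjusted p = 0.00190), against the vehicle values given above. Vcan, the large proteoglycan versican, measured 92.4, 85.2, 97.1 and 108 CPM with vehicle and 159, 132, 174 and 148 CPM with EVs (log2 fold change 0.67, SE 0.11, adjusted p = 0.00406). Col16a1, a fibril-associated collagen, measured 80.9, 65.0, 93.6 and 127 CPM and 147, 168, 127 and 151 CPM (log2 fold change 0.69, SE 0.12, adjusted p = 0.00689). The groups of Vcan and Col16a1 did not overlap.

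Col1a1 measured 379.6, 406, 398 and 596 CPM with vehicle and 576, 771, 580.3 and 651 CPM with EVs (log2 fold change 0.54, SE 0.11, adjusted p = 0.0221), and mouse 4 had both the highest vehicle value and the smallest difference. Col1a2 (0.53 ± 0.09, adjusted p = 0.00576), Col3a1 (0.62 ± 0.13, adjusted p = 0.0165), Col5a2 (0.51 ± 0.10, adjusted p = 0.0138) and Fn1 (0.47 ± 0.10, adjusted p = 0.0308) rose by similar amounts. Col4a1 measured 607, 495, 496 and 608 CPM with vehicle and 790.3, 785, 619.5 and 732 CPM with EVs (log2 fold change 0.39, SE 0.08, adjusted p = 0.0165), and its partner Col4a2 was 0.40 ± 0.07, adjusted p = 0.00996. Col18a1, the proteoglycan collagen from which endostatin is cut, was 0.40 ± 0.09, adjusted p = 0.0395. Every one of the 11 genes was higher in 4 of 4 mice.

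Laminins, Hspg2, the nidogen Nid1, Tnc and Sparc did not pass the test with EVs. Lamb3 was -0.14 ± 0.08, Hspg2 0.41 ± 0.11, Nid1 0.44 ± 0.11, Tnc 0.49 ± 0.13 and Sparc -0.01 ± 0.10, with adjusted p between 0.0668 and 0.991. The median over the interstitial genes was 0.47 and over the basement membrane genes 0.17, beside -0.0031 over all genes. The 8 fibroblast markers outside the set had a median of 0.48 with 8 of 8 positive, Dcn (0.73 ± 0.12) and Lum (0.80 ± 0.16) called higher, and a sum of 546 to 642 CPM. Their median level in the Epcam+ fraction was 23.3% to 30.4% of that in the CCL206 fraction with EVs. Their part in the rise was not tested. The count was 1 without mouse 1, 2 or 3 each, 18 higher and 1 lower without mouse 4, and 1 without the replicate block.

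**Figure D3:**
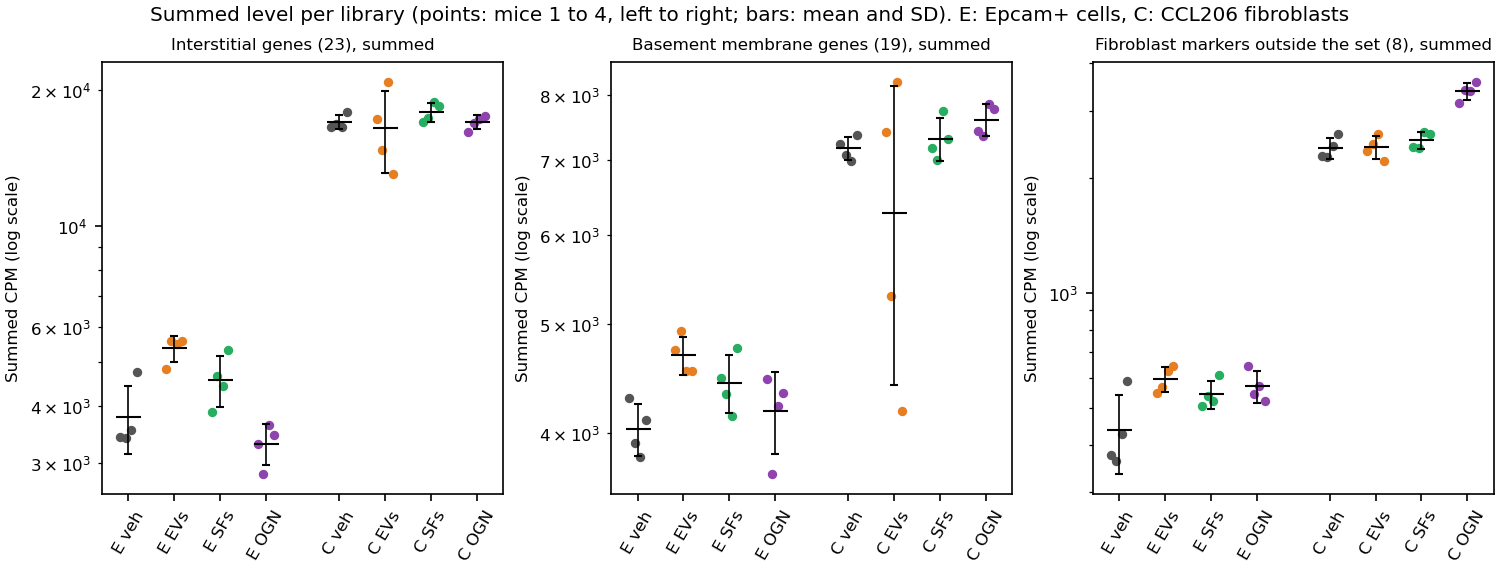
Summed CPM per library (log axes) of the 23 interstitial genes, the 19 basement membrane genes and the 8 fibroblast markers outside the set, in the 8 groups (points are mice 1 to 4 from left to right, bars are mean and SD). In Epcam+ cells with EVs the interstitial sum is 4835 to 5574 CPM and with vehicle 3410.3 to 4765 CPM, and the marker sums are 546 to 642 and 362 to 587 CPM.

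In CCL206 fibroblasts EVs raised 9 matrix genes (background 19.8%) and lowered 12 (background 16.2%, or 36% in either direction). As a share of the 48 genes, the higher calls were near the background and the lower calls above it. The EV-treated CCL206 libraries carried a trend on transcript length, strongest in mice 2 and 4. The Spearman correlation of a gene's deviation from vehicle with transcript length was -0.58 in mouse 2 and -0.62 in mouse 4, -0.29 in mouse 1 and -0.36 in mouse 3. Among the other libraries it ran from -0.29 (Epcam+ cells with OGN, mouse 4) to 0.33 (Epcam+ cells with SFs, mouse 1). The matrix genes are long, with a median of 6140 nt against 3467 nt over the genes tested, and 44 of 48 exceed that median. The values of the EV-treated CCL206 libraries are therefore given both with the trend left in and with it taken out.

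Col1a1 measured 1514, 1566, 1479 and 1658 CPM with vehicle and 1849, 2038, 2813 and 2052 CPM with EVs, without overlap (log2 fold change 0.48, SE 0.11, adjusted p = 0.00603). With the trend taken out its log2 fold change was 0.77 (adjusted p = 0.000266). Col16a1 was 0.60 ± 0.11, adjusted p = 0.00373 and 0.87, Col7a1 0.67 ± 0.14, adjusted p = 0.00519 and 1.21, Col11a2 0.80 ± 0.21, adjusted p = 0.0110 and 1.12, Col3a1 0.41 ± 0.12, adjusted p = 0.0146 and 0.66, and Col1a2 0.31 ± 0.10, adjusted p = 0.0249 and 0.54, with the trend in and out. The elastic fibre genes Efemp2 (0.49 ± 0.09, adjusted p = 0.00338) and Emilin1 (0.34 ± 0.09, adjusted p = 0.0141) were 0.28 and 0.39 without the trend. Sparc (0.37 ± 0.10, adjusted p = 0.0153), which at 2309 nt is among the shortest of the set, was 0.17 and no longer called. Of the 9 higher genes, 8 were also called with the trend taken out.

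The falling genes held 8 basement membrane genes. Fn1 measured 4869, 4959, 5252 and 5803 CPM with vehicle and 4602, 2063, 4136 and 1336 CPM with EVs (log2 fold change -0.85, SE 0.26, adjusted p = 0.0214), and mice 2 and 4 had the lowest values. Lama2 measured 79.7, 83.0, 73.1 and 93.6 CPM and 57.0, 31.7, 45.4 and 15.6 CPM (log2 fold change -1.17, SE 0.23, adjusted p = 0.00445). With the trend taken out Fn1 was -0.42 (adjusted p = 0.0460) and Lama2 -0.64 (adjusted p = 0.00549), and Col4a6 (-0.93 and -0.60), Lamc1 (-0.72 and -0.30) and Col4a3 (-1.43 and -1.01) stayed called. Lama4 (-0.52 ± 0.16, adjusted p = 0.0251), Lama5 (-0.55 ± 0.19, adjusted p = 0.0326), Hspg2 (-0.73 ± 0.27, adjusted p = 0.0431), Nid1 (-0.60 ± 0.21, adjusted p = 0.0406), Col6a3 (-0.63 ± 0.22, adjusted p = 0.0405), Col8a1 (-0.35 ± 0.12, adjusted p = 0.0356) and Fbln5 (-0.71 ± 0.26, adjusted p = 0.0464) were not called once the trend was out. Their values were then -0.24 for Lama4, 0.090 for Lama5, 0.0095 for Hspg2, -0.34 for Nid1, -0.14 for Col6a3, -0.15 for Col8a1 and -0.41 for Fbln5, so that Lama5 and Hspg2 changed sign.

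Col4a1 (0.35 ± 0.13) and Col4a2 (0.27 ± 0.13) did not pass the test with the trend left in and were 0.69 and 0.62, and called, with it taken out. Lamb3 (-0.11 ± 0.21, and 0.13 with the trend out) and Tnc (-0.34 ± 0.17, and 0.042) were called in neither fit. With the trend out, 15 matrix genes were higher and 5 lower, and 13 calls were common to both fits. The share of all genes called with the trend out is not given, so those counts stand without a background. The call count was 0 without mouse 2, 10 without mouse 4, 9 higher and 3 lower without the EV libraries of mice 2 and 4, and 1 when only the 8 libraries compared were fitted.

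**Figure D4:**
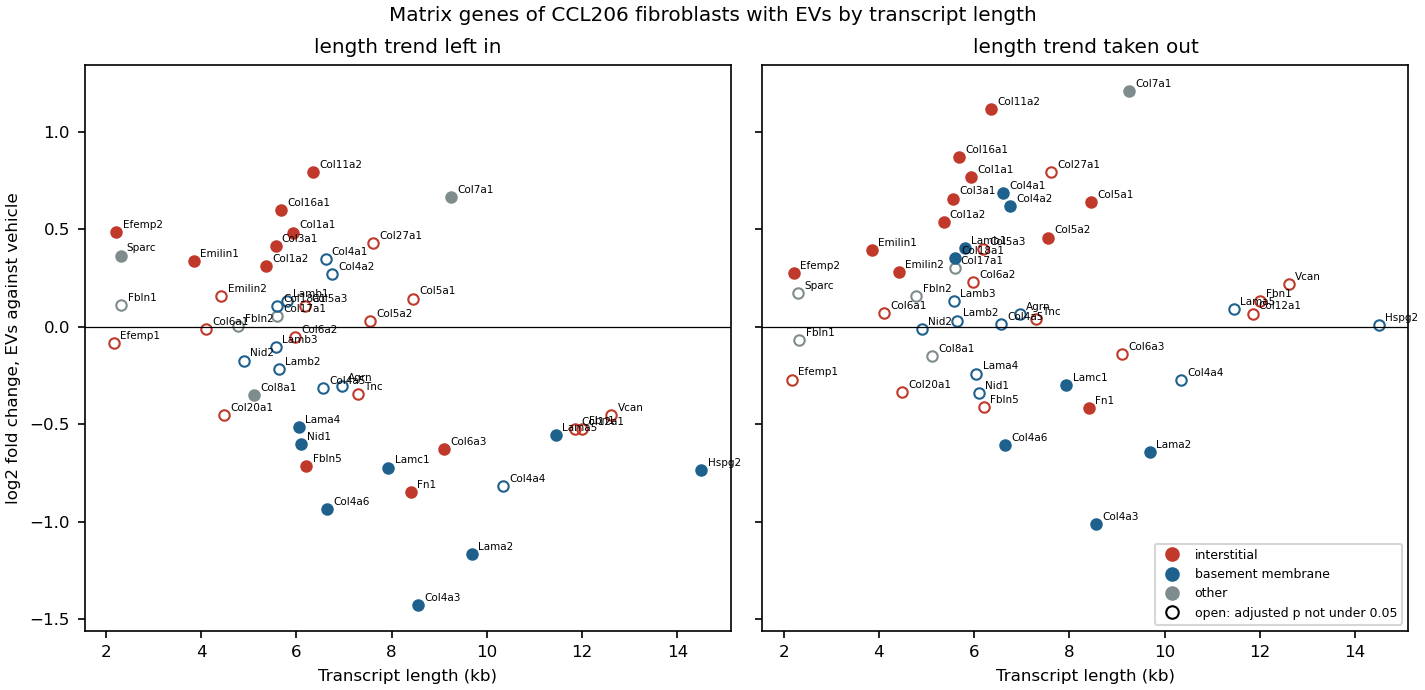
Log2 fold change of 47 matrix genes in CCL206 fibroblasts with EVs against transcript length in kb, with each library's length trend left in (left) and taken out (right). Filled points passed the test, and Hspg2, the longest transcript, moves from -0.73 to 0.0095.

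The EV effect differed between the populations for 16 matrix genes, all lower in CCL206 fibroblasts than in Epcam+ cells (background 12% lower), of which 9 were basement membrane genes. Fn1 had the smallest p, with a difference of -1.35 ± 0.30 (adjusted p = 0.00561), its own EV values being 0.47 for the Epcam+ fraction and -0.85 for CCL206 fibroblasts. With the length trend taken out, 1 gene was higher and 6 were lower, and Fn1 was -0.87 (adjusted p = 0.00689). The share of all genes called in that fit is not given. The count was 0 without mouse 2, 7 without mouse 4 and 1 without the EV-treated CCL206 libraries of both mice. Among Col1a1 (-0.08 ± 0.17), Col1a2 (-0.25 ± 0.14) and Col3a1 (-0.23 ± 0.18), no difference between the populations passed the test, and with the trend out their values were 0.24, 0.020 and 0.051.

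With SFs, 1 matrix gene, Fbln2, passed edgeR's test in Epcam+ cells (background 0.23% in either direction, 0.154% higher and 0.0768% lower). At an unadjusted p under 0.05, 15 of 48 were higher and 3 lower, beside 913 of 11716 genes tested, and DESeq2 called 1. The fibroblast markers outside the set had a median of 0.32 with 8 of 8 positive (0.28 with the length trend out). Over the interstitial genes the median was 0.27, and 0.17 with the length trend out, beside these markers. Their part in these values was not tested. Fbln2 measured 198, 242, 233 and 261 CPM with SFs (log2 fold change 0.47, SE 0.09, adjusted p = 0.0349), higher than with vehicle in 4 of 4 mice. This call was lost without mouse 1, 2 or 3 and without the replicate block (adjusted p = 0.575). In CCL206 fibroblasts no matrix gene passed edgeR's test with SFs (6 of 48 at an unadjusted p under 0.05, 0 by DESeq2, background 0.0599%), and 3 were higher and 4 lower when only the 8 libraries compared were fitted. For Col1a1 the SF value was 0.21 ± 0.12 in the Epcam+ fraction and 0.13 ± 0.10 in the CCL206 fraction, and edgeR's test of the difference in SF effect between the populations called 0 matrix genes (3 at an unadjusted p under 0.05, 0 by DESeq2, background 0%).

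Fbln2 was therefore called higher in Epcam+ cells with all 3 agents. These comparisons share the vehicle-treated libraries, so their agreement is not independent. In CCL206 fibroblasts Fbln2 was 0.00 ± 0.11 with EVs (0.16 with the length trend out), 0.21 ± 0.11 with SFs and 0.67 ± 0.11 with OGN, of which only the last passed the test.

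**Figure D5:**
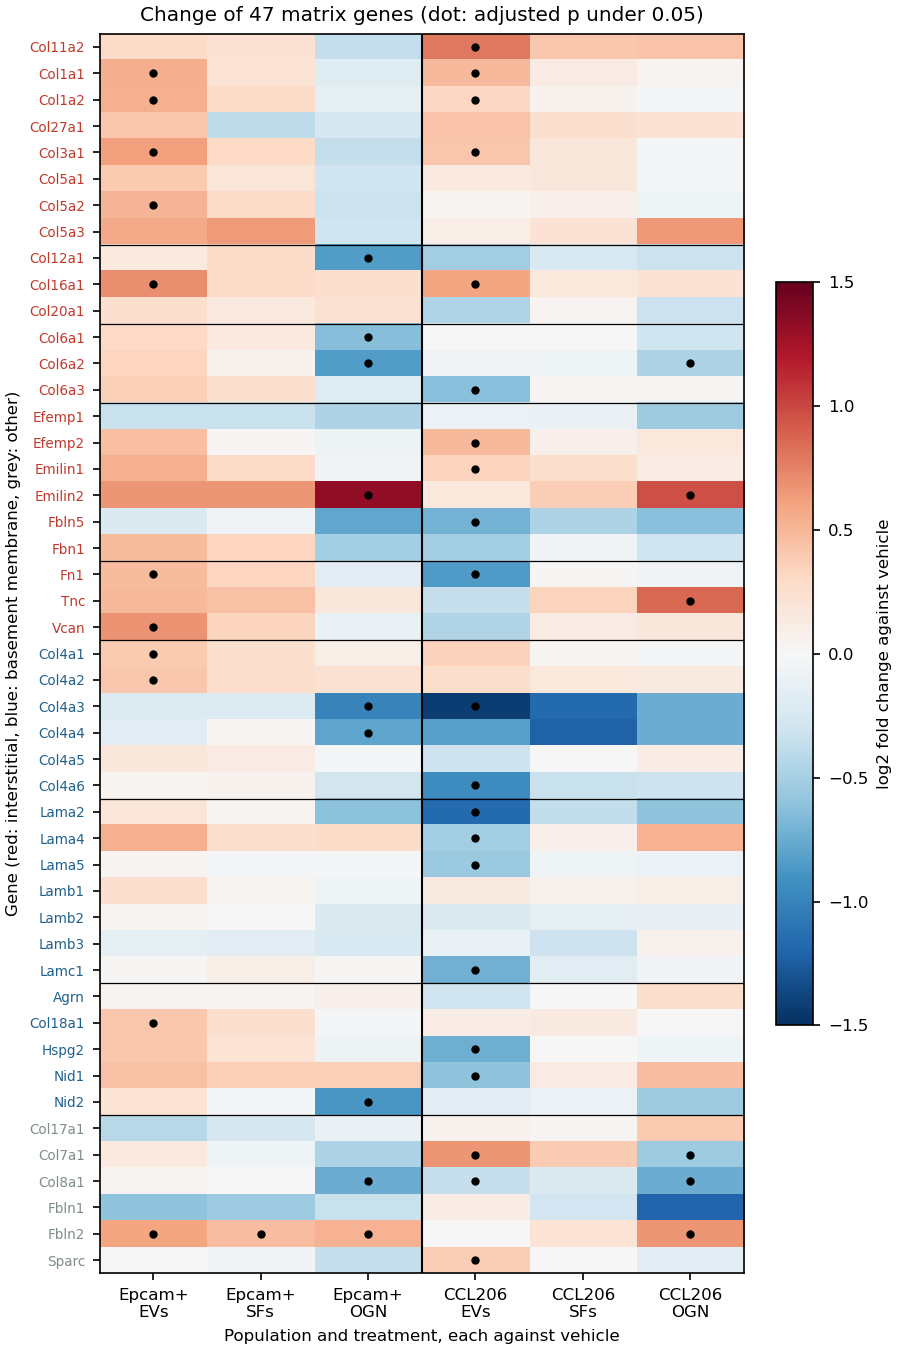
Log2 fold change against vehicle of 47 matrix genes (rows, grouped by class, red names interstitial, blue names basement membrane, grey names neither) for EVs, SFs and OGN in either population, with a dot where the adjusted p was under 0.05. Emilin2 and Fbln2 carry dots for OGN in both populations, and the 8 fibrillar collagens carry none for SFs or OGN.

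Interstitial and basement membrane genes were also set side by side in each mouse. In Epcam+ cells with EVs the interstitial median exceeded the basement membrane median by 0.37, 0.34, 0.40 and 0.14 on the log2 scale in mice 1 to 4. With OGN the same difference was -0.17, -0.19, -0.055 and -0.19. In CCL206 fibroblasts the differences were 0.25, 0.33, 0.28 and 0.67 with EVs, 0.085, 0.17, 0.18 and 0.18 with SFs, and 0.019, 0.029, 0.068 and 0.12 with OGN. SFs in Epcam+ cells gave 0.11, 0.31, 0.22 and -0.071. All of these values keep the length trend. In the fits of CCL206 fibroblasts with EVs, the interstitial median was 0.030 with the trend in and 0.28 with it out. The basement membrane median was -0.32 and 0.0095, with 0 higher and 8 lower called with the trend in and 4 higher and 4 lower with it out. These medians have no test. The fibroblast marker median in Epcam+ cells was 0.44, 0.63, 0.67 and 0.26 with EVs and 0.53, 0.19, 0.52 and -0.23 with OGN in the same mice. With SFs it was 0.38, 0.45, 0.33 and 0.11.

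Summed over the class, interstitial counts were 0.799 to 1.16 times the basement membrane counts in vehicle-treated Epcam+ libraries and 2.29 to 2.43 times in CCL206 libraries. With OGN the ratio was 0.738 to 0.858 and 2.18 to 2.30, and with EVs 1.02 to 1.23 and 2.33 to 3.13. The sums of the EV-treated CCL206 libraries keep their length trend. The 48 genes took 0.804 to 0.975% of counts in vehicle-treated Epcam+ libraries and 2.52 to 2.70% in CCL206 libraries.

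Collagen chains assemble in fixed trimers, so their transcript ratios were described per kb. Col1a1 over Col1a2 was 0.474 to 0.553 in vehicle-treated Epcam+ libraries and 0.393 to 0.411 in CCL206 libraries. Col4a1 over Col4a2 was 1.48 ± 0.045 and 1.40 ± 0.084 (mean ± SD, n = 4). The ratio of Col6a3 over Col6a1 ranged over 1.65 to 1.92 with vehicle and 2.00 to 2.32 with OGN in CCL206 libraries, without overlap. In Epcam+ libraries it ranged over 1.07 to 1.37 with vehicle and 1.33 to 1.88 with OGN, with overlap. No ratio was tested. Lamb1 over Lamc1 was 0.448 to 0.642 in vehicle-treated Epcam+ libraries and 1.16 to 1.25 in CCL206 libraries.

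Of 26 integrins, syndecans and other matrix receptors, OGN raised 3 and lowered 1 in Epcam+ cells (2.7% of all genes were called in either direction), namely Itga7 (0.75 ± 0.10, adjusted p = 4.46e-05), a laminin-binding integrin chain, Itgb6 (0.52 ± 0.11, adjusted p = 0.00608), the epithelial partner of the integrin that activates TGF-beta, Itga2 (0.33 ± 0.08, adjusted p = 0.0148), a collagen-binding chain, and the syndecan Sdc2 (-0.61 ± 0.13, adjusted p = 0.00769). In CCL206 fibroblasts OGN raised Sdc1 (0.48 ± 0.10, adjusted p = 0.00609) and Itga5 (0.37 ± 0.08, adjusted p = 0.00920), the fibronectin receptor chain, and lowered Sdc2 (-0.47 ± 0.09, adjusted p = 0.00385), where 4.56% of all genes were called. The OGN effect on Sdc1 differed between the populations (0.53 ± 0.11, adjusted p = 0.0189). EVs raised Itga7 in Epcam+ cells (0.41 ± 0.10, adjusted p = 0.0487), where 0.888% of all genes were called, and with the length trend out 0 receptors passed the test there. In CCL206 fibroblasts EVs raised 3 receptors, led by Sdc1 (0.60 ± 0.10, adjusted p = 0.00255, and 0.57 with the length trend out), and lowered 6, led by Itga2 (-0.95 ± 0.20, adjusted p = 0.00486, and -0.60). These 9 of 26 are a share near the 36% of all genes called, and with the trend out 4 receptors were higher and 2 lower. With vehicle, 12 of 25 receptors tested were higher in Epcam+ cells and 12 lower (35.6% and 35.8% of all genes), and the epithelial integrin chain Itgb4, which binds laminin, differed by 5.20 ± 0.13.

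Of 17 measured matricellular and latent TGF-beta binding proteins, OGN raised Spp1, osteopontin, in both populations (0.76 ± 0.10, adjusted p = 4.73e-05 in Epcam+ cells and 0.78 ± 0.11, adjusted p = 0.000381 in CCL206 fibroblasts). In all it raised 2 and lowered 2 of the 17 in Epcam+ cells and raised 1 and lowered 5 in CCL206 fibroblasts, where 2.7% and 4.56% of all genes were called. It lowered Tnxb, tenascin-X (-1.08 ± 0.21 and -1.12 ± 0.21), and Mgp, the matrix Gla protein (-1.13 ± 0.25 and -0.90 ± 0.20), in both. Ccn1 rose in Epcam+ cells (0.58 ± 0.10, adjusted p = 0.000801) and fell in CCL206 fibroblasts (-0.96 ± 0.23, adjusted p = 0.0234), and this difference passed the test of the interaction (-1.55 ± 0.27, adjusted p = 0.00231). Ltbp4 (-0.67 ± 0.11, adjusted p = 0.00152) and Ccn4 (-0.57 ± 0.13, adjusted p = 0.0129) fell in CCL206 fibroblasts. EVs raised Spp1 (0.53 ± 0.10) and Ltbp2 (0.52 ± 0.11) in Epcam+ cells. In CCL206 fibroblasts EVs raised 3 of the 17 and lowered 4, where 19.8% of all genes were higher and 16.2% lower, and with the length trend out 3 were higher and 2 lower. Thbs2 was -1.26 ± 0.22 with the trend in and -1.01 with it out. SFs raised Spp1 in Epcam+ cells (0.48 ± 0.10, adjusted p = 0.0478) and called none in CCL206 fibroblasts.

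Of the 10 AT2 markers, OGN raised Sftpa1 (0.42 ± 0.09) and Sftpd (0.45 ± 0.09) and lowered Hopx (-0.64 ± 0.13) in Epcam+ cells (2.7% of all genes called), and raised Sftpa1 (0.83 ± 0.19) and Sftpd (0.88 ± 0.24) in the CCL206 fraction (4.56% called). With EVs, Slc34a2 fell in Epcam+ cells (-0.31 ± 0.07). In CCL206 fibroblasts EVs lowered 2 of 10, where 16.2% of all genes were lower, namely Slc34a2 (-0.55 ± 0.14, and -0.46 with the length trend out) and Lrrk2 (-0.57 ± 0.15, and -0.063, no longer called). The immune marker Cd14 rose with OGN in both populations (0.76 ± 0.09, adjusted p = 7.36e-06 in Epcam+ cells and 1.76 ± 0.15, adjusted p = 3.95e-06 in CCL206 fibroblasts) and with EVs in CCL206 fibroblasts (0.88 ± 0.16, adjusted p = 0.00339, and 0.51 with the length trend out), and Vwf (tested in Epcam+ cells) and Cd68 were not called in any treatment comparison.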

How the data were processed

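RNA of Epcam+ cells and CCL206 fibroblasts from the same cultures was sequenced in 32 libraries (4 mice, 8 groups). The authors deposited raw read counts per gene symbol, 1 column per library, and all columns were used. Per the submitters' processing notes, reads were trimmed with Trimmomatic 0.30 and DESeq2 1.34.0 was used. The aligner, the counter and the strand setting are not given in the sources used here, and the genome build is given as GRCm38 patch 6 in the methods and GRCm39 in the labels. Every gene in the table had at least 1 count in every library, a filter that the sources do not describe. For 8 of the 48 matrix genes some library held fewer than 10 counts.

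Counts were fitted with edgeR 4.0.16 (R 4.3.3, limma 3.58.1) after TMM scaling and its filter on low counts by group. The quasi-likelihood F test was run over all genes, with Benjamini-Hochberg adjustment and a threshold of 0.05. Each population's 16 libraries were fitted with treatment and mouse, the difference in effect with all 32 libraries and mouse within population, and the populations with the 8 vehicle-treated libraries. An SE is the absolute log2 fold change over the square root of F. Mouse numbers mark the animal whose Epcam+ cells were cultured. The correlation of deviations between libraries of 1 mouse under different treatments had a median of 0.129 in Epcam+ cells and 0.0997 in CCL206 fibroblasts, against -0.043 and -0.0406 between mice. No 2 libraries of a group agreed within sampling noise. The CCL206 libraries come from 1 line, so their spread may be technical. The main edgeR fits were tested on simulated counts that held no mouse effect and no length trend. DESeq2 and the fit with the length trend taken out were not tested in this way.

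Levels are CPM with TMM scaling over all 32 libraries. Lengths are those of GENCODE vM39 canonical transcripts, where RefSeq lengths had been planned, since those were not at hand, and 11693 of 11818 genes (98.9%) had one, 76 by an older symbol. The length trend was removed through offsets from a lowess curve (span 0.3) per library.

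The matrix genes and all lists were chosen with earlier results of these data known. Full statistics were given for up to 10 genes with the smallest p in each direction among those called, for a fixed set of 14 matrix genes, and for up to 3 per direction of each other list. Alternatives were DESeq2 1.42.0, its size factors, other count filters, no replicate block, leaving out each mouse, the length trend taken out, and other sets of libraries. The values of 1 matrix gene are not reported here, and it is counted only in totals. Figures were drawn with matplotlib 3.10.9 in Python 3.11.15.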

Additional observations from a re-analysis of the deposited data

Results flagged for a closer look

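Each of 384 values (48 matrix genes in 8 groups of 4 libraries) was checked for 1 library far from the other 3, with a gap above Dixon's 95% critical value. Such a gap was found 19 times, and chance alone gives about 1 in 20. In Epcam+ cells, the libraries apart from the other 3 mice were Col17a1 with EVs in mouse 4 (21.32 against 62.83 to 69.58 CPM), Col1a1 with vehicle in mouse 4 (595.5 against 379.6 to 405.5 CPM), Col5a1 with vehicle in mouse 4 (178.5 against 110 to 117.7 CPM), Col5a1 with OGN in mouse 2 (91.1 against 106.3 to 108.8 CPM), Col5a2 with vehicle in mouse 4 (210 against 133.5 to 146 CPM) and Col6a3 with SFs in mouse 4 (476.7 against 329 to 349.3 CPM). Further single libraries of Epcam+ cells were Efemp1 with OGN in mouse 3 (28.33 against 31.75 to 32.41 CPM), Fbln1 with OGN in mouse 4 (6.726 against 25.89 to 26.74 CPM), Fbn1 with vehicle in mouse 3 (41.05 against 62.56 to 65.29 CPM), Lama2 with vehicle in mouse 2 (6.432 against 12.47 to 13.67 CPM) and Vcan with SFs in mouse 4 (162.6 against 106.3 to 109.3 CPM). In CCL206 fibroblasts, the libraries apart from the other 3 mice were Col20a1 with OGN in mouse 2 (21.11 against 10.88 to 12.19 CPM), Col6a2 with OGN in mouse 3 (90.04 against 79.1 to 80.69 CPM), Col8a1 with SFs in mouse 4 (74.06 against 79.71 to 80.68 CPM) and Efemp1 with EVs in mouse 1 (7.769 against 2.232 to 2.484 CPM). Further single libraries of CCL206 fibroblasts were Fbln1 with OGN in mouse 2 (1.418 against 1.109 to 1.133 CPM), Lama4 with SFs in mouse 2 (61.89 against 76.14 to 76.27 CPM), Nid2 with SFs in mouse 4 (96.77 against 66.26 to 70.2 CPM) and Sparc with vehicle in mouse 3 (659.5 against 727.6 to 731.6 CPM). Mouse 4 was the library apart for Col1a1, Col5a1 and Col5a2 in vehicle-treated Epcam+ cells, each time high.

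The EV effect differed between the populations for 16 matrix genes by edgeR's quasi-likelihood test of the interaction, and all 16 were lower in CCL206 fibroblasts than in Epcam+ cells, as log2 differences. The first 8 by size were Lama2 (-1.35, adjusted p = 0.00616), Fn1 (-1.35, adjusted p = 0.00561), Col4a3 (-1.25, adjusted p = 0.0184), Hspg2 (-1.16, adjusted p = 0.0113), Vcan (-1.14, adjusted p = 0.00923), Nid1 (-1.07, adjusted p = 0.00844), Lama4 (-1.06, adjusted p = 0.0119) and Fbn1 (-1.02, adjusted p = 0.0244). The other 8 were Col6a3 (-1.01, adjusted p = 0.0124), Col4a6 (-0.988, adjusted p = 0.00612), Tnc (-0.855, adjusted p = 0.00984), Lamc1 (-0.757, adjusted p = 0.0148), Lama5 (-0.618, adjusted p = 0.0396), Fbln2 (-0.614, adjusted p = 0.00873), Col4a5 (-0.516, adjusted p = 0.0350) and Col5a2 (-0.511, adjusted p = 0.0313). No value was called without mouse 2, and 7 were called, 1 higher and 6 lower, once each library's trend on transcript length was taken out.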

How the results depend on the processing

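Of 198 summary values recomputed under other settings, 161 stayed within the spread or within 1.5 times and 37 moved, and of 2204 values of single genes 1960 kept direction and side of the threshold, 214 lost and 27 gained the call and 3 reversed. Without the replicate block the count of called matrix genes was 1 with EVs, 0 with SFs and 4 with OGN in Epcam+ cells, and no other count of called matrix genes moved by over 1.5 times. DESeq2 called 18 with EVs in Epcam+ cells. Fitting only the 8 libraries compared gave 3 with SFs in Epcam+ cells, and 1 with EVs, 7 with SFs and 13 with OGN in CCL206 fibroblasts. Leaving out the EV-treated libraries gave 1 with SFs and 16 with OGN in CCL206 fibroblasts, and leaving out those of mice 2 and 4 gave 12 with EVs and 1 for the EV difference between populations. Taking out the length trend gave 12 with OGN in CCL206 fibroblasts, 7 for the EV difference between populations and 1 for the OGN difference, and reversed Hspg2 (0.0095) and Lama5 (0.090) with EVs in CCL206 fibroblasts and Lama5 in the EV difference (0.068). The shares of all genes called under these other settings are not given, so the counts stand without a background. The cause was not tested.

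Leaving out 1 mouse at a time, the counts ran from 1 to 19 with EVs, 0 to 1 with SFs and 4 to 9 with OGN in Epcam+ cells, from 0 to 22 with EVs and 3 to 7 with OGN in CCL206 fibroblasts, and from 0 to 17 for the EV difference. The interstitial minus basement membrane median ran from -0.20 to -0.13 with OGN in Epcam+ cells, and in CCL206 fibroblasts from 0.10 to 0.18 with SFs and from 0.0025 to 0.076 with OGN. For fibrillar collagens against collagen IV and laminins it was 0.46 with EVs in Epcam+ cells, and 0.78 with EVs and 0.32 with SFs in CCL206 fibroblasts. With at least 10 counts in every library it was -0.15 with OGN in Epcam+ cells and 0.082 with SFs in CCL206 fibroblasts.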
